A study of Homo sapiens with 18 samples.

Results

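Homologous recombination repairs DNA double-strand breaks, the Fanconi anaemia pathway repairs crosslinks between DNA strands, and the checkpoint kinases hold the cell cycle while either is at work. The set described here holds 37 genes of these systems, named in a fixed list, and all 37 were among the 17017 genes of the deposited count table. The rule behind the list uses no measured value, though the list was chosen with earlier results of these data known. It was divided by role into the BRCA1-PALB2-BRCA2 axis, the recombination paralogs and mediators, the Fanconi core complex, the Fanconi ID complex and its effectors, end resection, dissolution of joint molecules, and the checkpoint kinases.

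The cells were MDA-MB-231, an established human triple-negative breast carcinoma line, transduced with lentiviral pLKO.1 vectors carrying a scrambled control (SC) or 1 of 2 short hairpin RNAs labelled SH2 and SH3 against FBL. FBL encodes fibrillarin, the methyltransferase that places 2'-O-methyl groups on ribosomal RNA. All cells, controls included, were virus-transduced, selected with puromycin and exposed to cycloheximide just before lysis. Each treatment had 3 libraries of input cytoplasmic RNA, called RNA here, and 3 libraries of ribosome-protected footprints, 18 libraries in all. The labels do not say which hairpin is the first or second knockdown of the protocol, or that replicates came from separate cultures, so p-values measure the spread between these libraries, which may be technical. In bulk libraries, fewer cells with a transcript and less of it per cell cannot be told apart.

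FBL itself checks the labels. Its RNA stood at 395, 349 and 421 CPM in SC, 1.26, 4.52 and 11.2 CPM in SH2 and 3.36, 4.15 and 2.95 CPM in SH3, where CPM is the count of a gene scaled to 1000000 reads of its library, after TMM adjustment of the library total. Footprints on FBL stood at 280, 269 and 296 CPM in SC, 5.18, 4.43 and 30.1 CPM in SH2 and 4.10, 5.48 and 8.06 CPM in SH3. Every hairpin library was below every SC library, mean RNA was 1.46% of SC in SH2 and 0.898% in SH3, and SH2 replicate 3 kept the most FBL of the hairpin libraries in both measures. VIM, a mesenchymal marker of the line, was abundant in every library, and EGFR and CD44 were present, while the hormone receptor genes ESR1 and PGR were at or near 0. In the order SC, SH2 and SH3, RNA of the receptor gene ERBB2 was 95.3 ± 8.54, 85.0 ± 7.11 and 83.4 ± 5.90 CPM (SD, n = 3), and that of the epithelial keratin KRT18 was 494 ± 25.3, 654 ± 72.2 and 680 ± 44.6 CPM. EGFR and CD44 were not steady. In the same order, EGFR RNA was 197 ± 25.9, 912 ± 14.1 and 615 ± 32.7 CPM, and CD44 RNA was 316 ± 77.4, 507 ± 51.0 and 336 ± 48.8 CPM. RNA libraries held 23469830 to 27629488 counted reads and footprint libraries 1662705 to 6098648. A member had 50 to 4651 reads in an RNA library and 4 to 710 in a footprint library, so footprint values are the less precise, and no group's counts of a member were all at 3 or below.

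In homologous recombination, the broken end is cut back to single-stranded DNA, BRCA1 with BARD1 and PALB2 brings in BRCA2, and paralogs, mediators and motor proteins then assist the search for a matching strand. In the Fanconi pathway, a core complex attaches ubiquitin to FANCD2 and FANCI, and effectors such as SLX4 and BRIP1 then act at the crosslink. ATM and ATR signal damage to CHEK2 and CHEK1. Many of these genes are transcribed most strongly as cells enter and pass through DNA replication, and the promoters of such genes often carry E2F sites, CHR elements and CCAAT boxes.

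The sequences 250 bases upstream of the annotated start were taken from RefSeq (GRCh38.p14), whose promoter table matched 33 of the 37 members; RAD54B, FANCI, RMI2 and NBN had no entry. Those of 4 members are shown, 5′ to 3′ on the strand of the gene: BRIP1, whose RNA was the most reduced of the set in SH2, FANCF, whose RNA was the most increased there, and FANCA and RMI1, the members in which an E2F word was found. Capitals mark the words searched on both strands, which were the E2F words TTTCCCGC, TTTCGCGC, TTTGCCGC and TTTGGCGC, the CHR word TTTGAA and the word CCAAT.
BRIP1, chr17:61863529-61863778, minus strand: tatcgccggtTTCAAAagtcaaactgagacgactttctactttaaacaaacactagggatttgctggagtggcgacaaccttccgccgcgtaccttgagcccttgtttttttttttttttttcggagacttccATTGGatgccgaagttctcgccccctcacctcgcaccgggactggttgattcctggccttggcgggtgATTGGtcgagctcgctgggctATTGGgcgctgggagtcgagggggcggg
FANCF, chr11:22625824-22626073, minus strand: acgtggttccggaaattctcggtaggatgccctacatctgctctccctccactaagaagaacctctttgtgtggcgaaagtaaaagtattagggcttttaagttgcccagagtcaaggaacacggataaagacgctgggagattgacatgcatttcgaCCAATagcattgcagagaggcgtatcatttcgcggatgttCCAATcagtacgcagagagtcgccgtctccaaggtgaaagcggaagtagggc
FANCA, chr16:89816648-89816897, minus strand: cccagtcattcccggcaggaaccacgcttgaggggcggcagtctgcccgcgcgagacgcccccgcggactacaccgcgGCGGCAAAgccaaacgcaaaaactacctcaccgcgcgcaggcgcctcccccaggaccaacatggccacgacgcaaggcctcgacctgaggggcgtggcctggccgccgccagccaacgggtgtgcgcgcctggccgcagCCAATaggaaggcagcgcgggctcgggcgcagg
RMI1, chr9:83980555-83980804, plus strand: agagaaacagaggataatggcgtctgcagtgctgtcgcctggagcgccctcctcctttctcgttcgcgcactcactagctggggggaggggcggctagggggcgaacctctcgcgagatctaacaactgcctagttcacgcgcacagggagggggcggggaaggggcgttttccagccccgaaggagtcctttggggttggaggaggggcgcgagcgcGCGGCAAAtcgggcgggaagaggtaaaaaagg
None of these words overlapped another in the windows shown. An E2F word was found in 2 of 33 members (6.06%) and in 2.79% of all 35116 RefSeq windows of this length. CCAAT was in 14 of 33 (42.4%) against 32% of all windows, and TTTGAA in 1 of 33, BRIP1, against 13.3%. Of the 16 matched members whose RNA was lower with both hairpins 7 held CCAAT, as did 2 of the 5 whose RNA was higher with both. The words were chosen after the values were seen, and a word is a match of letters, not a measured site.

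The first comparison asks how RNA of these genes differed between FBL-depleted and control cells. RNA of most members was lower: of 37, 30 fell and 5 rose in SH2, and 19 fell and 6 rose in SH3 (edgeR quasi-likelihood test, Benjamini-Hochberg adjusted p under 0.05 over 12710 genes tested). Such calls were common in these libraries. In SH2, 61.4% of all tested genes were called, 30.4% lower and 31.1% higher, and in SH3 53.0%, 25.2% lower and 27.8% higher. The median member log2 change was -0.85 in SH2 and -0.37 in SH3, beside 0.01 and 0.03 for all genes tested. Summed over the members, RNA was 1563, 1851 and 1772 CPM in SC, 952, 1049 and 951 CPM in SH2 and 1370, 1281 and 1353 CPM in SH3. The sums did not overlap between any pair of treatments, with SH2 lowest and SH3 between it and SC.

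Both hairpin comparisons use the same SC libraries, so they are not independent of each other. RNA of 19 members fell with both hairpins, that of 5 rose with both (PALB2, RAD52, FANCE, FANCF and RAD50), 10 were called with SH2 alone and none with SH3 alone. How many of all tested genes were called with both hairpins was not counted, so these counts stand without that share. The count for SH2 alone was 6 with RLE size factors and 6 with DESeq2, since XRCC3, FANCL, SLX4 and CHEK2 were then also called lower with SH3. With only the compared treatments fitted it was 5, with 2 called with SH3 alone. FANCC was called in opposite directions, and RAD51B and RAD51D were called with neither hairpin. RNA was reduced below 50% of SC, a log2 change under -1, for 16 members in SH2 and 4 in SH3. The share of all genes below that level was not counted.

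**Figure D1:**
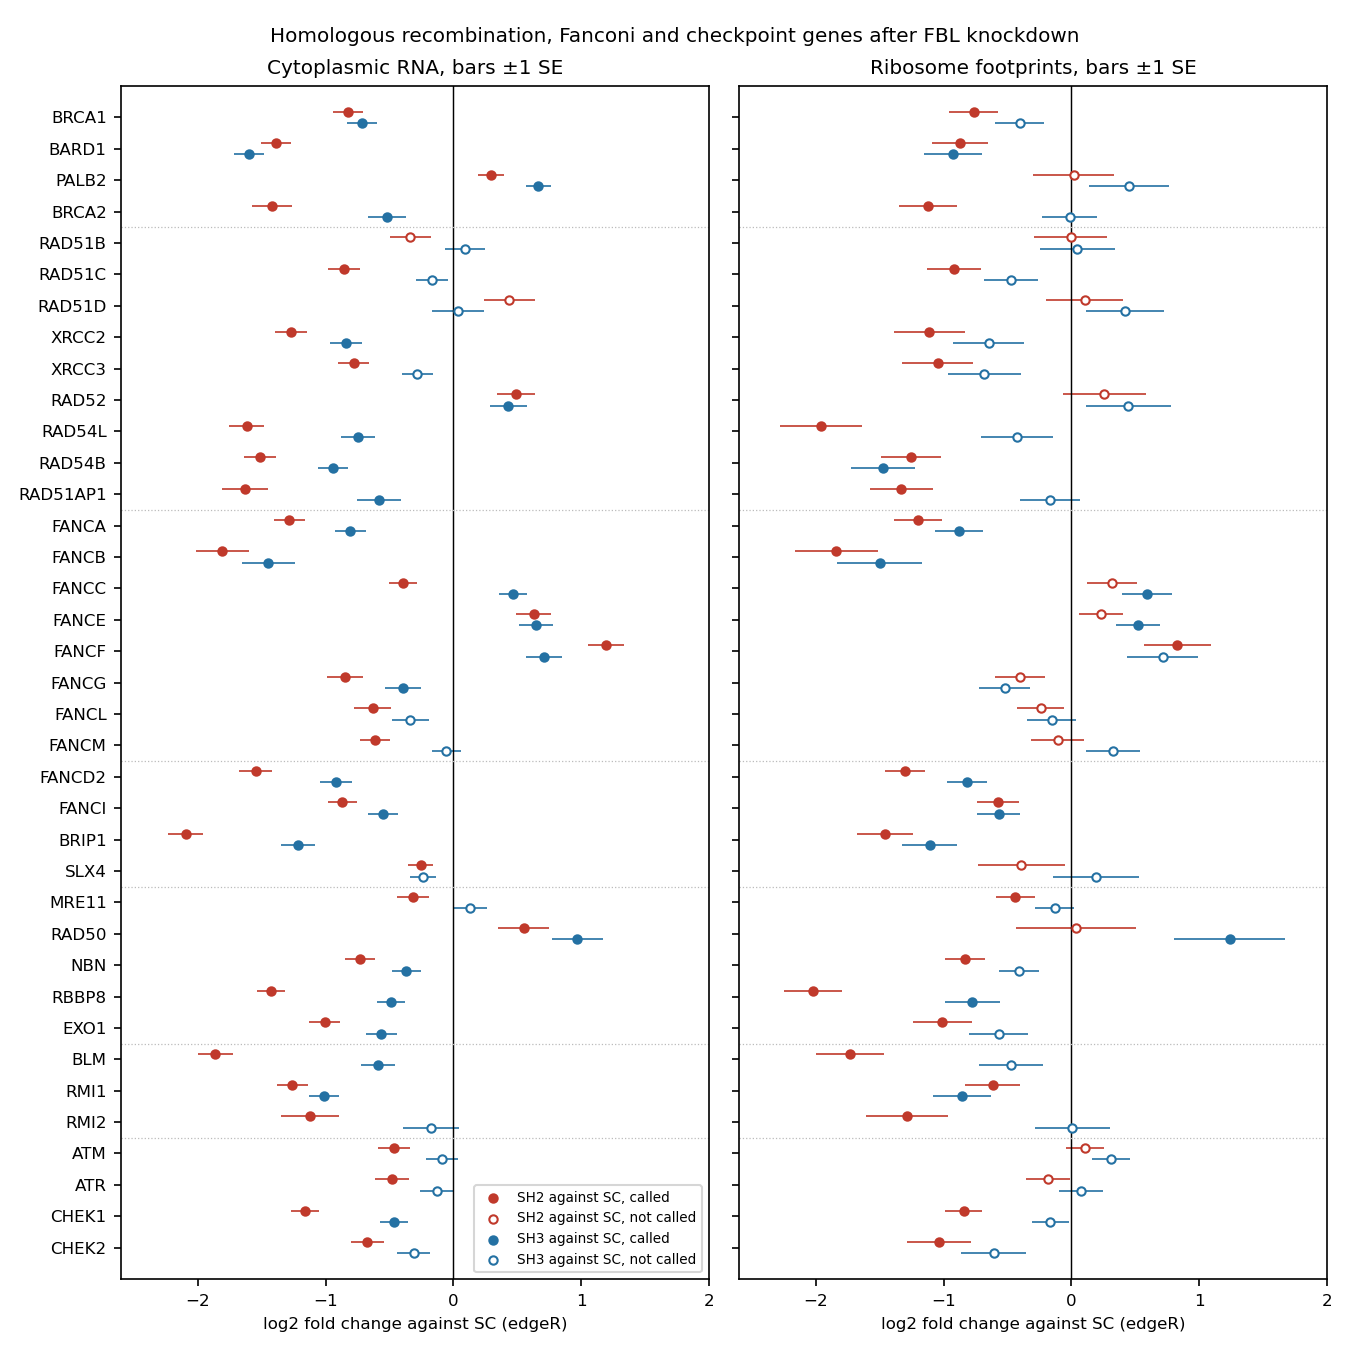
Log2 change of RNA (left) and of ribosome footprints (right) against SC for the 37 members, ordered by role, from edgeR; red is SH2, blue is SH3, bars are ±1 SE over 3 libraries a group, and filled points passed adjusted p under 0.05. Red points lie mostly left of blue ones, BRIP1 is furthest left in RNA, and FANCF, FANCE, RAD50, PALB2 and RAD52 lie right of 0 in RNA with both hairpins.

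In the BRCA1-PALB2-BRCA2 axis, RNA of BRCA1, BARD1 and BRCA2 fell with both hairpins and RNA of PALB2 rose with both. BRCA1, the ubiquitin ligase subunit that starts the choice of recombination, had RNA at 62.1, 76.0 and 67.0 CPM in SC, 39.9, 40.5 and 35.4 CPM in SH2 and 44.1, 35.2 and 45.3 CPM in SH3. The SC libraries were all above the hairpin libraries, and the hairpins overlapped. The log2 change was -0.83 (SE 0.12, adjusted p 3.86e-05) in SH2 and -0.72 (SE 0.12, adjusted p 0.000185) in SH3, edgeR values as are all log2 changes here. Footprints on BRCA1 were at 26.9, 30.3 and 23.4 CPM in SC, 14.8, 15.6 and 16.5 CPM in SH2 and 24.6, 18.8 and 17.9 CPM in SH3, where SH2 lay below SC and SH3 overlapped it. Their log2 change was -0.76 (SE 0.19, adjusted p 0.00415) in SH2 and -0.40 (SE 0.19, adjusted p 0.113), not called, in SH3. BRCA1 has a pseudogene copy, and how reads shared by copies were counted is not given in the sources used here, so its values are uncertain.

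BARD1, the partner that BRCA1 needs for its ligase activity, had RNA at 45.4, 57.3 and 57.9 CPM in SC, 19.6, 20.7 and 20.9 CPM in SH2 and 16.4, 17.1 and 19.4 CPM in SH3. Its footprints stood at 20.3, 17.3 and 18.8 CPM in SC, 10.0, 8.39 and 12.9 CPM in SH2 and 8.78, 10.6 and 10.2 CPM in SH3. In both measures SC was above all hairpin libraries. RNA changed by -1.39 (SE 0.12, adjusted p 4.02e-07) in SH2 and -1.60 (SE 0.12, adjusted p 3.32e-07) in SH3. Footprints changed by -0.87 (SE 0.22, adjusted p 0.00417) and -0.92 (SE 0.23, adjusted p 0.00513). With footprints thinned to 1662705 reads in every library, the SH2 footprint call of BARD1 was lost (log2 change -0.51, adjusted p 0.131).

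BRCA2, the mediator mutated in hereditary breast and ovarian cancer, had RNA at 61.7, 85.3 and 69.4 CPM in SC, 25.3, 32.7 and 22.9 CPM in SH2 and 56.9, 42.7 and 51.2 CPM in SH3. The treatments did not overlap, with SC highest and SH2 lowest. The log2 change was -1.42 (SE 0.15, adjusted p 3.55e-06) in SH2 and -0.52 (SE 0.15, adjusted p 0.0100) in SH3, and SH2 was lower than SH3 by -0.90 (SE 0.15, adjusted p 0.000485). Its footprints were at 27.4, 18.5 and 27.3 CPM in SC, 11.5, 9.56 and 13.6 CPM in SH2 and 28.7, 27.0 and 19.3 CPM in SH3, so that SH2 lay below all other libraries while SC and SH3 overlapped. Their log2 change was -1.12 (SE 0.23, adjusted p 0.000969) in SH2 and -0.01 (SE 0.22, adjusted p 0.971), not called, in SH3. The SH3 call in BRCA2 RNA was lost without SC replicate 2 (log2 change -0.38, adjusted p 0.0510). RNA of PALB2, the bridge between BRCA1 and BRCA2, rose by 0.29 in SH2 (adjusted p 0.0199) and by 0.67 in SH3 (adjusted p 9.29e-05), and its footprints were called in neither. The SH2 call in PALB2 was lost without SC replicate 1, SC replicate 3 or SH2 replicate 2 (adjusted p 0.0525 to 0.0711).

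Among the 9 recombination paralogs and mediators, RNA of 6 fell and 1 rose in SH2, and 4 fell and 1 rose in SH3. Footprints of 6 fell in SH2 and of 1, RAD54B, in SH3. RAD54B, a motor protein of the recombination reaction, had RNA at 30.2, 35.3 and 31.5 CPM in SC, 12.2, 10.6 and 11.2 CPM in SH2 and 19.1, 15.8 and 15.6 CPM in SH3. Its footprints were at 23.9, 20.2 and 27.7 CPM in SC, 10.4, 10.3 and 9.71 CPM in SH2 and 8.20, 5.82 and 11.9 CPM in SH3. Hairpin libraries lay below SC in both measures. RNA changed by -1.51 (SE 0.12, adjusted p 2.83e-07) in SH2 and -0.94 (SE 0.12, adjusted p 2.27e-05) in SH3, and footprints by -1.26 (SE 0.23, adjusted p 0.000498) and -1.48 (SE 0.25, adjusted p 0.000351).

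RAD54L, the related motor usually called RAD54, differed between the hairpins in both measures. Its RNA was 34.2, 40.1 and 41.9 CPM in SC, 12.3, 10.5 and 15.0 CPM in SH2 and 25.3, 21.6 and 22.3 CPM in SH3, and the 3 treatments did not overlap. Footprints were 15.1, 11.0 and 10.8 CPM in SC, 1.85, 2.80 and 4.86 CPM in SH2 and 8.20, 10.6 and 8.76 CPM in SH3, and the SH2 libraries were again the lowest. RNA changed by -1.62 (SE 0.14, adjusted p 4.39e-07) in SH2 and -0.75 (SE 0.13, adjusted p 0.000372) in SH3. The footprint change was -1.96 (SE 0.32, adjusted p 0.000153) in SH2 and -0.42 (SE 0.28, adjusted p 0.260), not called, in SH3.

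RAD51AP1, an accessory protein of recombination, had RNA at 17.8, 29.1 and 23.6 CPM in SC, 7.69, 8.50 and 6.58 CPM in SH2 and 18.2, 13.4 and 15.6 CPM in SH3. SH2 was below every other library, while SH3 replicate 1 overlapped SC replicate 1. Footprints were 30.8, 20.2 and 22.7 CPM in SC, 7.41, 11.0 and 11.0 CPM in SH2 and 30.4, 18.1 and 20.0 CPM in SH3, with SH2 lowest and SC and SH3 overlapping. The RNA change was -1.63 (SE 0.18, adjusted p 3.97e-06) in SH2 and -0.58 (SE 0.17, adjusted p 0.0118) in SH3, and the SH3 call was lost without SC replicate 2 (log2 change -0.40, adjusted p 0.0670). In footprints the log2 change of RAD51AP1 was -1.33 (SE 0.25, adjusted p 0.000507) in SH2 and -0.17 (SE 0.24, adjusted p 0.617), not called, in SH3.

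Of the paralogs proper, XRCC2 RNA fell with both hairpins (-1.27 in SH2 and -0.84 in SH3), and RAD51C and XRCC3 fell in SH2 (-0.86 and -0.78). In SH3 the changes of RAD51C and XRCC3 were -0.17 and -0.28, not called, though XRCC3 was called there with DESeq2 (log2 change -0.31, adjusted p 0.0403) and without SC replicate 2 or SH3 replicate 2. Footprints of all 3 fell in SH2, by -1.11, -0.92 and -1.05. RAD51B and RAD51D did not pass the test against SC in RNA or footprints; with the replicate number as a block, RAD51D RNA was called higher in SH2 (log2 change 0.44, adjusted p 0.0265). RNA of RAD52, an annealing protein, rose by 0.49 in SH2 and 0.43 in SH3, and the SH3 call was lost without SC replicate 1, SC replicate 3, SH3 replicate 2 or SH3 replicate 3 (adjusted p 0.0600 to 0.110).

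The Fanconi core complex was mixed. In RNA, 6 of its 8 genes fell and 2 rose in SH2, and 3 fell and 3 rose in SH3. In footprints 2 fell and 1 rose in SH2, and 2 fell and 2 rose in SH3. FANCB, a subunit of the catalytic module, had RNA at 11.4, 15.9 and 14.0 CPM in SC, 5.18, 3.61 and 3.02 CPM in SH2 and 6.16, 4.24 and 4.71 CPM in SH3. Its footprints were 8.93, 13.1 and 10.1 CPM in SC, 3.70, 2.80 and 2.27 CPM in SH2 and 5.27, 2.40 and 3.86 CPM in SH3. SC was above all hairpin libraries in both. RNA changed by -1.81 (SE 0.21, adjusted p 6.26e-06) in SH2 and -1.45 (SE 0.21, adjusted p 6.09e-05) in SH3, and footprints by -1.84 (SE 0.32, adjusted p 0.000318) and -1.50 (SE 0.33, adjusted p 0.00250).

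FANCA, the scaffold subunit most often mutated in Fanconi anaemia, had RNA at 50.7, 61.5 and 62.3 CPM in SC, 21.4, 22.7 and 27.6 CPM in SH2 and 36.1, 30.9 and 32.6 CPM in SH3. The treatments did not overlap. Footprints were at 53.9, 53.1 and 62.3 CPM in SC, 20.0, 21.4 and 32.4 CPM in SH2 and 32.8, 29.4 and 30.5 CPM in SH3, where both hairpins lay below SC and overlapped each other. The change was -1.28 (SE 0.12, adjusted p 1.20e-06) in SH2 RNA and -0.81 (SE 0.12, adjusted p 9.52e-05) in SH3 RNA. In footprints it was -1.20 (SE 0.19, adjusted p 0.000105) and -0.88 (SE 0.19, adjusted p 0.00196). RNA of the subunit gene FANCG fell by 0.85 in SH2 and 0.39 in SH3, and its SH3 call was lost without SC replicate 2, SC replicate 3 or SH3 replicate 2 (adjusted p 0.0853 to 0.117). The ubiquitin ligase subunit FANCL and the DNA translocase FANCM fell in SH2 (-0.63 and -0.61), with -0.34 and -0.05, not called, in SH3. FANCL was called in SH3 with DESeq2 (log2 change -0.36, adjusted p 0.0462) and without SC replicate 1.

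FANCC was the only member called in opposite directions by the hairpins. Its RNA was 16.7, 17.4 and 18.2 CPM in SC, 12.4, 13.3 and 14.2 CPM in SH2 and 22.9, 23.6 and 25.8 CPM in SH3. All SH2 libraries were below SC and all SH3 libraries above it. The log2 change was -0.39 (SE 0.11, adjusted p 0.00695) in SH2 and 0.47 (SE 0.11, adjusted p 0.00249) in SH3, and the difference between hairpins was -0.86 (SE 0.11, adjusted p 4.53e-05). Footprints on FANCC were 14.9, 19.0 and 19.5 CPM in SC, 21.5, 23.3 and 21.0 CPM in SH2 and 25.8, 22.3 and 31.9 CPM in SH3, and both hairpins lay above SC. Only the SH3 footprint change was called, 0.59 (SE 0.20, adjusted p 0.0279), against 0.32 (SE 0.20, adjusted p 0.202) in SH2. That SH3 call was lost without SC replicate 1 or SH3 replicate 3 (adjusted p 0.0877 to 0.156).

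FANCF, an adaptor of the core complex, was the most increased member in SH2, and its libraries are given because its values stood out. RNA was 9.88, 9.27 and 11.0 CPM in SC, 21.6, 21.6 and 25.9 CPM in SH2 and 13.7, 18.6 and 17.0 CPM in SH3. Every hairpin library was above SC, and SH2 was above SH3. The RNA change was 1.19 (SE 0.14, adjusted p 6.77e-06) in SH2 and 0.71 (SE 0.14, adjusted p 0.000844) in SH3. Footprints were 7.14, 5.48 and 5.33 CPM in SC, 13.3, 8.62 and 11.0 CPM in SH2 and 11.7, 9.24 and 9.47 CPM in SH3, again above SC with both hairpins, with changes of 0.83 (SE 0.26, adjusted p 0.0169) in SH2 and 0.71 (SE 0.27, adjusted p 0.0524), not called, in SH3. The SH2 footprint call of FANCF was lost without SC replicate 3 or SH2 replicate 1 (adjusted p 0.0685 to 0.0725). RNA of FANCE, which links the core complex to FANCD2, rose by 0.63 in SH2 and 0.64 in SH3. Its footprints rose in SH3 alone (0.52), a call lost without SC replicate 2, SH3 replicate 2 or SH3 replicate 3 (adjusted p 0.0744 to 0.0878).

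**Figure D2:**
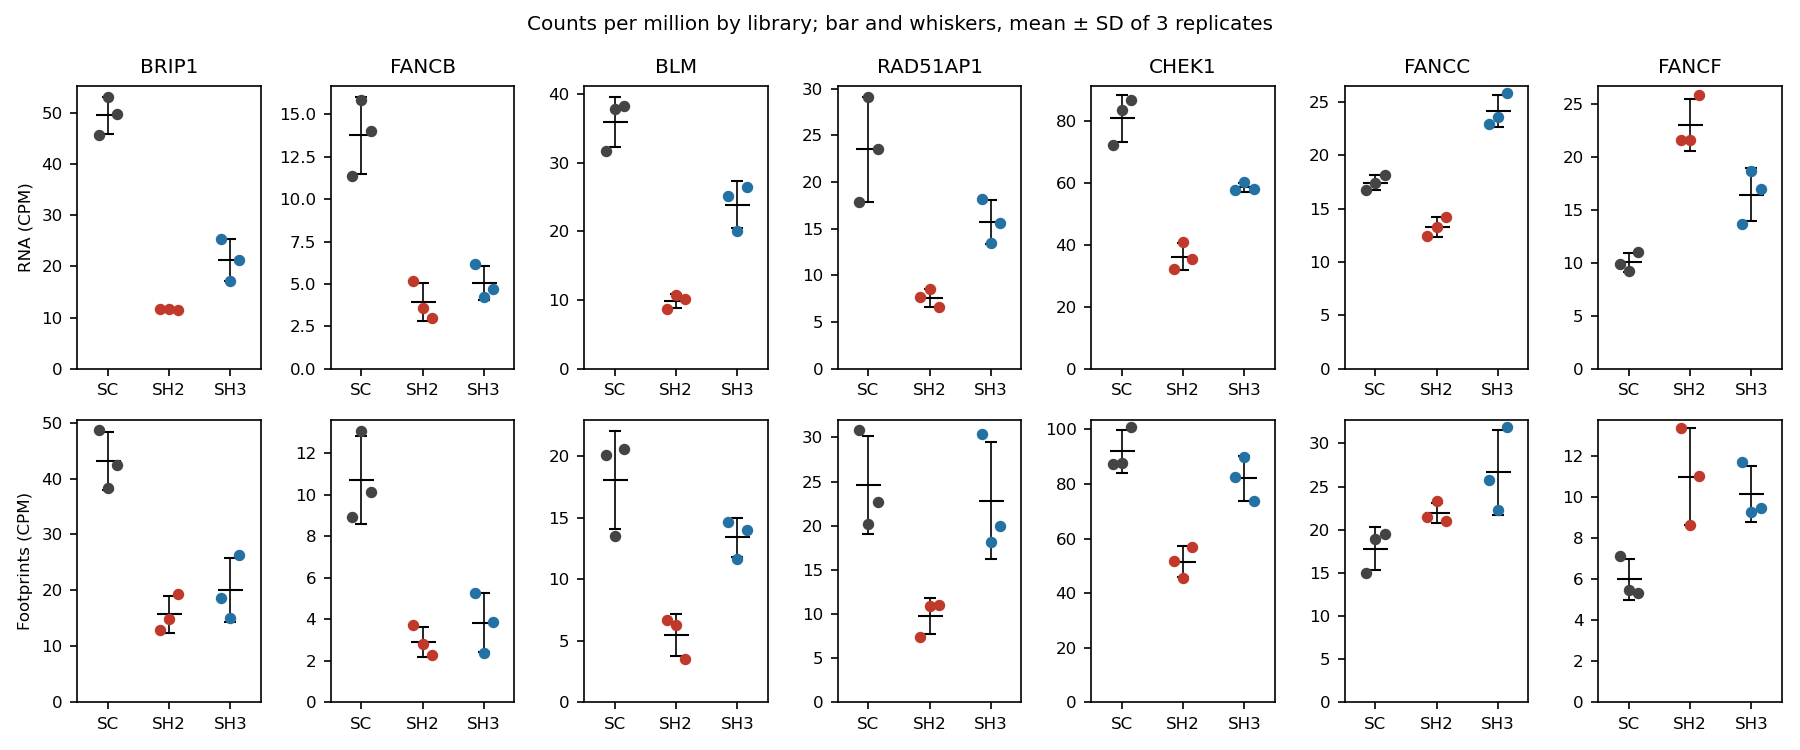
RNA (top) and ribosome footprints (bottom) in CPM for 7 members in each of the 18 libraries; points are libraries, and bars give the mean ± SD of 3 libraries in SC, SH2 and SH3. BRIP1 and FANCB are lower in both hairpins, BLM, RAD51AP1 and CHEK1 are lowest in SH2, FANCC RNA lies on opposite sides of SC, and FANCF is higher in both.

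In the ID complex and its effectors no RNA rose: all 4 genes fell in SH2 and 3 in SH3, and footprints of FANCD2, FANCI and BRIP1 fell with both. BRIP1, a helicase that binds BRCA1, had RNA at 45.7, 53.0 and 49.7 CPM in SC, 11.6, 11.6 and 11.5 CPM in SH2 and 25.4, 17.2 and 21.3 CPM in SH3. The groups did not overlap, and the SH2 libraries were nearly equal to one another. Its mean RNA was 23.4% of SC in SH2 and 43.0% in SH3. The log2 change was -2.10 (SE 0.14, adjusted p 4.26e-08) in SH2 and -1.22 (SE 0.13, adjusted p 6.04e-06) in SH3. Footprints were 48.7, 38.3 and 42.4 CPM in SC, 13.0, 14.9 and 19.4 CPM in SH2 and 18.7, 15.1 and 26.3 CPM in SH3, lower in both hairpins than in SC, with changes of -1.46 (SE 0.22, adjusted p 7.01e-05) and -1.11 (SE 0.22, adjusted p 0.00106).

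FANCD2, the ubiquitinated clamp of the pathway, had RNA at 38.0, 50.4 and 51.4 CPM in SC, 17.0, 15.4 and 15.4 CPM in SH2 and 25.9, 22.9 and 25.2 CPM in SH3. Footprints on it were 63.3, 51.8 and 58.2 CPM in SC, 23.0, 23.8 and 24.0 CPM in SH2 and 34.5, 34.2 and 30.5 CPM in SH3. In both measures SC was highest, SH2 lowest and SH3 between, with no overlap. RNA changed by -1.55 (SE 0.13, adjusted p 3.17e-07) in SH2 and -0.92 (SE 0.12, adjusted p 3.79e-05) in SH3, and footprints by -1.30 (SE 0.16, adjusted p 1.16e-05) and -0.81 (SE 0.16, adjusted p 0.000906). FANCD2 has pseudogene copies, which makes its level uncertain. FANCI, its partner in the clamp, fell by 0.87 and 0.55 in RNA and by 0.58 and 0.57 in footprints. The FANCI footprint calls were lost without SH2 replicate 1 (adjusted p 0.0511) for SH2 and without SH3 replicate 2 (adjusted p 0.0817) for SH3. SLX4, a scaffold for nucleases, had the smallest RNA call of the 4 in SH2 (-0.26), lost without SC replicate 2, SC replicate 3 or SH2 replicate 1 (adjusted p 0.0812 to 0.0999), and footprints called in neither hairpin. The SH2 RNA call of SLX4 was also lost in edgeR without the low-count filter (adjusted p 0.0760) and with only the compared treatments fitted (0.0514). The SH3 RNA value of SLX4 (-0.24) was called with DESeq2 (log2 change -0.26, adjusted p 0.0332) and without SH3 replicate 1.

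In end resection, RNA of NBN, RBBP8 and EXO1 fell with both hairpins and RNA of RAD50 rose with both. RBBP8, which encodes CtIP, the cofactor that starts resection, had RNA at 157, 192 and 181 CPM in SC, 66.5, 73.6 and 56.4 CPM in SH2 and 123, 127 and 127 CPM in SH3. Its footprints were 60.1, 42.1 and 41.0 CPM in SC, 13.3, 9.09 and 13.6 CPM in SH2 and 26.9, 33.9 and 23.1 CPM in SH3. SC, SH3 and SH2 stood in that falling order in both measures without overlap. RNA changed by -1.43 (SE 0.11, adjusted p 1.90e-07) in SH2 and -0.49 (SE 0.11, adjusted p 0.00180) in SH3. Footprints changed by -2.02 (SE 0.23, adjusted p 6.84e-06) in SH2, the largest footprint fall of the set, and -0.78 (SE 0.21, adjusted p 0.0101) in SH3. The SH3 footprint call of RBBP8 was lost without SC replicate 1 or SH3 replicate 3 (adjusted p 0.0511 to 0.0657).

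EXO1, the long-range resection nuclease, fell by 1.01 in SH2 RNA and 0.56 in SH3 RNA, and its footprints fell in SH2 (-1.01). Within the MRE11-RAD50-NBN break-binding complex the 3 subunits did not move together. NBN RNA fell by 0.73 and 0.37, with footprints down by 0.83 in SH2. MRE11 RNA fell by 0.31 in SH2 alone, a call lost without SC replicate 2, SC replicate 3, SH2 replicate 1 or SH2 replicate 3 (adjusted p 0.0992 to 0.176). That RNA call was also lost with only the compared treatments fitted (adjusted p 0.0520). The SH2 footprint call of MRE11 (-0.44) was lost without any 1 of 5 libraries, all but SC replicate 2 (adjusted p 0.0550 to 0.104). It was also lost with DESeq2 (adjusted p 0.0527), and in edgeR without the low-count filter (0.0565), with only the compared treatments (0.0564) and with thinned footprints (0.0531). RAD50 RNA was low in reads, at 2.08, 3.21 and 2.36 CPM in SC, 3.29, 3.80 and 4.13 CPM in SH2 and 5.16, 4.53 and 5.33 CPM in SH3, and rose by 0.55 in SH2 and 0.97 in SH3. Its call in SH2 was lost without SC replicate 1, SC replicate 3, SH2 replicate 2 or SH2 replicate 3 (adjusted p 0.0589 to 0.115), and with only the compared treatments fitted (adjusted p 0.0543). The SH3 footprint call of RAD50 (1.24) was lost without SC replicate 3 (log2 change 1.04, adjusted p 0.133) or SH3 replicate 2 (log2 change 0.68, adjusted p 0.327). It was also lost with DESeq2 (log2 change 1.22, adjusted p 0.0557).

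In the complex that dissolves joined DNA molecules, RNA and footprints of BLM, RMI1 and RMI2 all fell in SH2. BLM, the helicase lost in Bloom syndrome, had RNA at 31.8, 37.8 and 38.3 CPM in SC, 8.71, 10.8 and 10.2 CPM in SH2 and 25.2, 20.1 and 26.4 CPM in SH3. Footprints were 20.1, 13.5 and 20.6 CPM in SC, 6.67, 6.29 and 3.56 CPM in SH2 and 14.6, 11.6 and 14.0 CPM in SH3. SH2 was below all other libraries in both measures, and SH3 was below SC in RNA and overlapped it in footprints. The RNA change was -1.86 (SE 0.14, adjusted p 1.33e-07) in SH2 and -0.59 (SE 0.13, adjusted p 0.00179) in SH3. The footprint change was -1.74 (SE 0.27, adjusted p 9.88e-05) in SH2 and -0.47 (SE 0.25, adjusted p 0.148), not called, in SH3.

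RMI1, a scaffold of the complex, had RNA at 47.2, 56.7 and 54.9 CPM in SC, 21.5, 25.1 and 19.6 CPM in SH2 and 26.1, 23.9 and 28.7 CPM in SH3. Its footprints were 29.1, 21.9 and 30 CPM in SC, 18.9, 17.9 and 16.8 CPM in SH2 and 19.3, 10.3 and 16.8 CPM in SH3. Both hairpins lay below SC and overlapped each other. RNA changed by -1.26 (SE 0.12, adjusted p 1.16e-06) in SH2 and -1.01 (SE 0.12, adjusted p 1.33e-05) in SH3, and footprints by -0.62 (SE 0.21, adjusted p 0.0280) and -0.86 (SE 0.23, adjusted p 0.00808). The SH2 footprint call of RMI1 was lost without any 1 of 5 libraries, all but SC replicate 2 (adjusted p 0.0522 to 0.110), and the SH3 call without SH3 replicate 2 (adjusted p 0.0678). The SH2 call was also lost with DESeq2 (log2 change -0.60, adjusted p 0.0522).

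RMI2, the third subunit, had RNA at 4.12, 5.89 and 6.96 CPM in SC, 3.14, 1.88 and 2.77 CPM in SH2 and 5.48, 4.99 and 4.60 CPM in SH3, with SH2 below the rest and SC and SH3 overlapping. Its footprints were 10.7, 9.69 and 12.4 CPM in SC, 2.22, 4.90 and 6.15 CPM in SH2 and 7.61, 10.6 and 14.4 CPM in SH3, in the same arrangement. The RNA change was -1.12 (SE 0.23, adjusted p 0.000725) in SH2 and -0.17 (SE 0.22, adjusted p 0.527) in SH3. In footprints it was -1.29 (SE 0.32, adjusted p 0.00416) and 0.01 (SE 0.29, adjusted p 0.984). Neither SH3 value was called.

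All 4 checkpoint kinase RNAs fell in SH2, and CHEK1 alone fell in SH3. CHEK1, the effector kinase of ATR, had RNA at 72.4, 83.7 and 86.9 CPM in SC, 32.2, 40.9 and 35.6 CPM in SH2 and 57.8, 60.4 and 58.0 CPM in SH3. SC was highest and SH2 lowest, without overlap. The RNA change was -1.16 (SE 0.11, adjusted p 9.62e-07) in SH2 and -0.46 (SE 0.11, adjusted p 0.00232) in SH3. Footprints on CHEK1 were 87.3, 87.6 and 101 CPM in SC, 51.8, 45.7 and 57.0 CPM in SH2 and 82.5, 90.0 and 73.6 CPM in SH3, where SH2 was lowest and SH3 overlapped SC, with changes of -0.84 (SE 0.15, adjusted p 0.000282) and -0.17 (SE 0.14, adjusted p 0.394), the latter not called.

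CHEK2, the effector kinase of ATM, had RNA at 12.4, 15.0 and 12.5 CPM in SC, 8.20, 8.96 and 7.82 CPM in SH2 and 11.5, 10.4 and 10.3 CPM in SH3. Both hairpins were below SC, and SH2 was below SH3. Its footprints were 18.02, 25.7 and 17.4 CPM in SC, 7.04, 11.2 and 10.4 CPM in SH2 and 14.6, 15.4 and 9.47 CPM in SH3, lower than SC with both hairpins. The RNA value was -0.67 (SE 0.13, adjusted p 0.000479) in SH2 and -0.31 (SE 0.13, adjusted p 0.0573) in SH3. The footprint values were -1.04 (SE 0.25, adjusted p 0.00365) and -0.61 (SE 0.25, adjusted p 0.0737). The SH3 values were not called, though CHEK2 RNA was called in SH3 with DESeq2 (log2 change -0.33, adjusted p 0.0434) and without SC replicate 1 or SH3 replicate 1. CHEK2 has pseudogene copies, so its counts are uncertain.

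ATM and ATR, the kinases that sense damage, had the smallest RNA falls of the 4 in SH2. ATM RNA was 116, 138 and 121 CPM in SC, 84.2, 111 and 76.8 CPM in SH2 and 120, 111 and 122 CPM in SH3, with SH2 below SC and SH3 overlapping it. The change was -0.46 (SE 0.13, adjusted p 0.00567) in SH2 and -0.09 (SE 0.13, adjusted p 0.591), not called, in SH3. Footprints on ATM were 66.2, 64.5 and 58.2 CPM in SC, 76.3, 70.4 and 56.7 CPM in SH2 and 79.0, 82.2 and 72.9 CPM in SH3, and were called in neither hairpin (0.11 and 0.31). ATR RNA was 63.1, 73.8 and 60.9 CPM in SC, 45.2, 57.2 and 39.4 CPM in SH2 and 65.8, 55.5 and 59.4 CPM in SH3, again with SH2 below SC. The change was -0.48 (SE 0.13, adjusted p 0.00620) in SH2 and -0.13 (SE 0.13, adjusted p 0.429), not called, in SH3. ATR footprints were 53.6, 76.7 and 69.6 CPM in SC, 50.0, 68.8 and 55.0 CPM in SH2 and 76.1, 62.0 and 71.5 CPM in SH3, with all treatments overlapping and changes of -0.18 and 0.07 that were not called.

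Ribosome footprints followed the RNA in direction wherever both were called. Of 37 members, 23 fell and 1 rose in SH2, where 44.2% of the 10345 genes tested in footprints were called, 23.2% lower and 21.0% higher. In SH3, 9 fell and 3 rose, beside 35.9% of all genes called, 19.0% lower and 16.9% higher. The member median log2 change was -0.83 in SH2 and -0.40 in SH3, against 0.00 and -0.01 for all genes. All 23 footprint falls in SH2 and all 9 in SH3 were of genes whose RNA also fell there, and no gene was called in opposite directions in its RNA and its footprints. Summed member footprints were 1190, 1075 and 1144 CPM in SC, 695, 719 and 743 CPM in SH2 and 968, 913 and 909 CPM in SH3, with no overlap.

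In all, 9 of the 37 members fell with both hairpins in both RNA and footprints: BARD1, RAD54B, FANCA, FANCB, FANCD2, FANCI, BRIP1, RBBP8 and RMI1. The share of all genes that did so was not counted. With all footprint libraries thinned to the depth of the shallowest, 22 members were called in SH2 and 10 in SH3. None of the SH3 rises (FANCC, FANCE and RAD50) was called at that depth.

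Translational efficiency is the footprint change beyond the RNA change, tested as an interaction in 1 model over all 18 libraries. No member was called in either hairpin by edgeR, where 3.90% of 12531 genes were called in SH2, 2.46% lower, and 0.686% in SH3. At an unadjusted p under 0.05, edgeR counted 7 members in SH2 (FANCC, ATM, RMI1, BRIP1, BARD1 and FANCM above 0 and RBBP8 below 0) and 2 in SH3 (BARD1 and ATM, both above 0). DESeq2 called 1 member in SH2, FANCC (log2 change 0.71, adjusted p 0.0127), and 0 in SH3. The edgeR value of FANCC in SH2 was 0.70 (SE 0.20, adjusted p 0.0566). Member medians were 0.06 in SH2 and 0.11 in SH3, beside -0.02 and -0.04 for all genes. SEs ran from 0.17 to 0.51 in SH2 and 0.17 to 0.48 in SH3, and the ±2 SE interval of the least precise gene, RAD50 in SH2, ran from -1.54 to 0.50. Differences inside such intervals were not detectable at this depth.

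**Figure D3:**
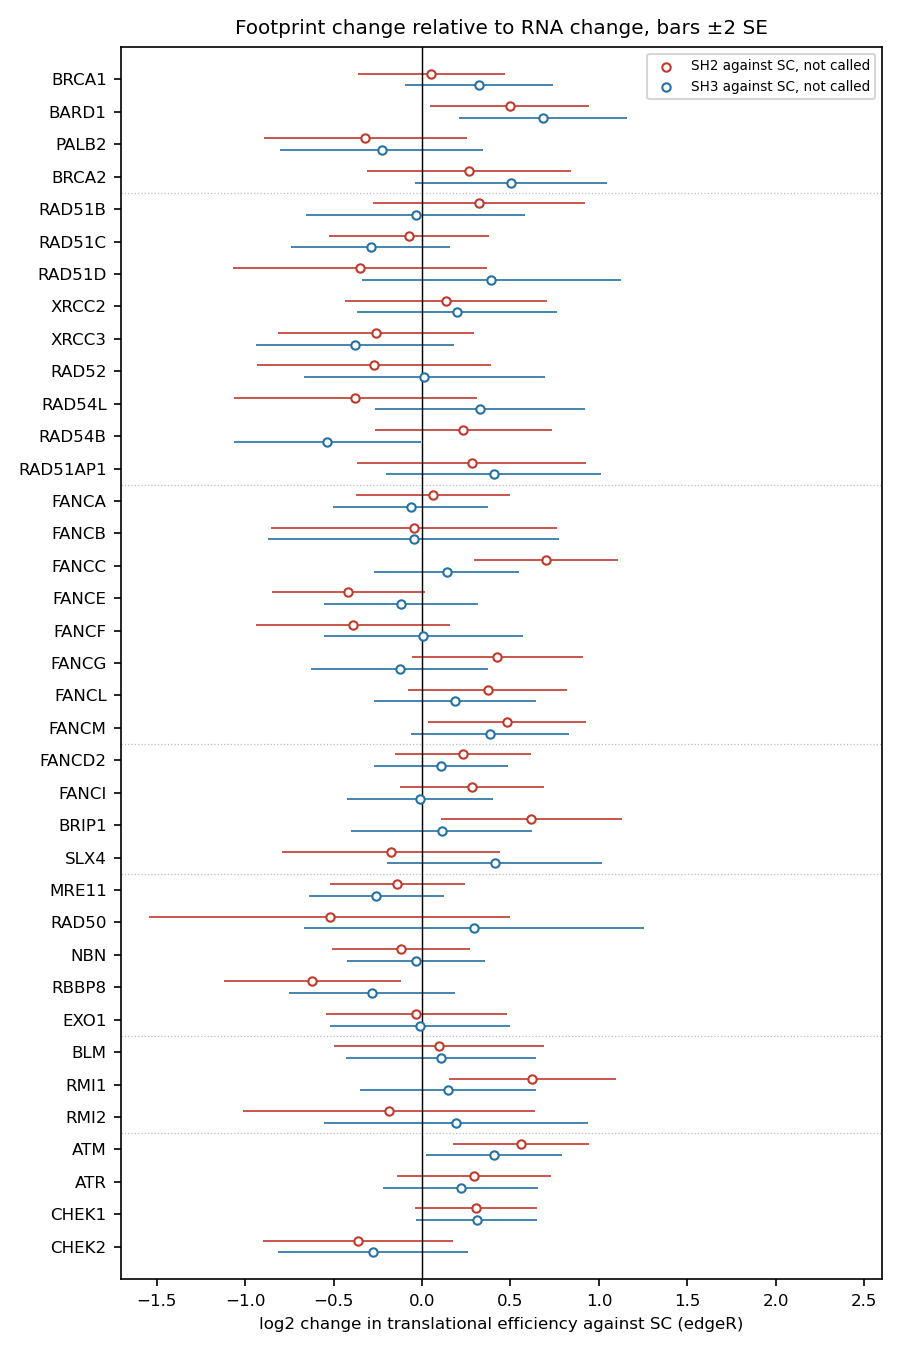
Log2 change in translational efficiency against SC for each member, from the edgeR interaction; red is SH2, blue is SH3, bars are ±2 SE, and open points did not pass adjusted p under 0.05. All points are open and lie between -0.62 and 0.70, with FANCC in SH2 the highest.

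The direct comparison of the hairpins asks whether they differed from each other. SC is not compared here, but its libraries were in the same fit and share the estimate of the spread. In RNA, 26 members were lower in SH2 than in SH3 and 1, FANCF, was higher, while 39.3% of all genes were called, 20.4% lower in SH2. The member median was -0.43, beside 0.00 for all genes. With only SH2 and SH3 fitted, 24 members were called in RNA and 9 in footprints. In footprints 8 members were lower in SH2 and none was higher (at an unadjusted p under 0.05, 10 were below 0), where 23.8% of all genes were called, 11.6% lower and 12.1% higher. The 8 footprint genes were BRCA2, RAD54L, RAD51AP1, FANCD2, RBBP8, BLM, RMI2 and CHEK1, and each was also lower in RNA. In translational efficiency edgeR called 0 members (3 at an unadjusted p under 0.05) and DESeq2 called 0, with 0.0160% of all genes called by edgeR. Of the 19 members whose RNA fell with both hairpins, 15 were lower in SH2 than in SH3, and of the 10 called with SH2 alone, 8 were. These members were picked by calls on the same SH2 and SH3 libraries. A call lower with SH2 alone already favours a lower value in SH2, so that count is no separate evidence of a difference. The matching shares of all genes were not counted. BARD1, FANCB and RMI1 were among those where RNA of the hairpins did not differ at the threshold, with differences of 0.21 (SE 0.12, adjusted p 0.176), -0.36 (SE 0.22, adjusted p 0.206) and -0.25 (SE 0.12, adjusted p 0.117).

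Other genes of the same systems are given from lists written with earlier results of these data known, and no difference between lists was tested. Of 46 other homologous recombination and Fanconi genes tested in RNA, 21 fell and 8 rose in SH2 (median log2 change -0.21) and 10 fell and 10 rose in SH3 (median -0.02). The share called, 63.0% in SH2 and 43.5% in SH3, stands beside 61.4% and 53.0% of all genes. POLQ, the polymerase of end joining at short homologies, fell by 1.81 in SH2 and 1.52 in SH3, and EME2, a nuclease subunit, rose by 1.50 and 1.60. Of 25 other checkpoint and damage signalling genes, 13 fell and 5 rose in SH2 (median -0.47), and 10 fell and 6 rose in SH3 (median -0.03), 72.0% and 64.0% called. H2AX, the histone marked at breaks, fell by 1.09 and 1.44, and the values of ETAA1, an activator of ATR, were -1.27 and -0.93.

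Non-homologous end joining is the competing route. Of its 14 listed genes, 3 fell and 3 rose in SH2 (42.9% called, beside 61.4% of all genes, with a median of -0.08) and 1 fell and 6 rose in SH3 (50.0% called, beside 53.0%, with a median of 0.27). The shieldin subunit genes moved apart, SHLD1 RNA rising by 0.68 and 1.03 and SHLD2 falling by 0.60 and 0.93. CDKN1A, which encodes the cyclin-dependent kinase inhibitor p21, was chosen after its values were seen. Its RNA rose by 1.48 in SH2 and fell by 0.64 in SH3, a difference between hairpins of 2.11 (SE 0.13, adjusted p 8.93e-08), and its footprints differed by 1.71 (SE 0.16, adjusted p 4.94e-06).

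Most proliferation markers also fell against SC. Of 28 such genes, RNA of 28 fell in SH2 (median log2 change -1.16) and 24 in SH3 (median -1.27), and footprints of 27 and 22 fell. Of all tested genes, 30.4% in SH2 and 25.2% in SH3 were called lower in RNA, and 23.2% and 19.0% in footprints. Their summed RNA was 3788 to 4910 CPM in SC, 1595 to 1975 CPM in SH2 and 1867 to 2267 CPM in SH3. The hairpins overlapped in this sum, and the marker median between them was -0.02, with 9 markers lower and 1 higher in SH2. The member RNA medians were -0.85 in SH2, -0.37 in SH3 and -0.43 between the hairpins. This difference between the lists was not tested. RRM2, a subunit of ribonucleotide reductase, fell by 2.25 and 2.26, and the values of CCNE2, an S-phase cyclin, were -2.56 and -2.23. The part of proliferation in the members' changes was not tested.

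**Figure D4:**
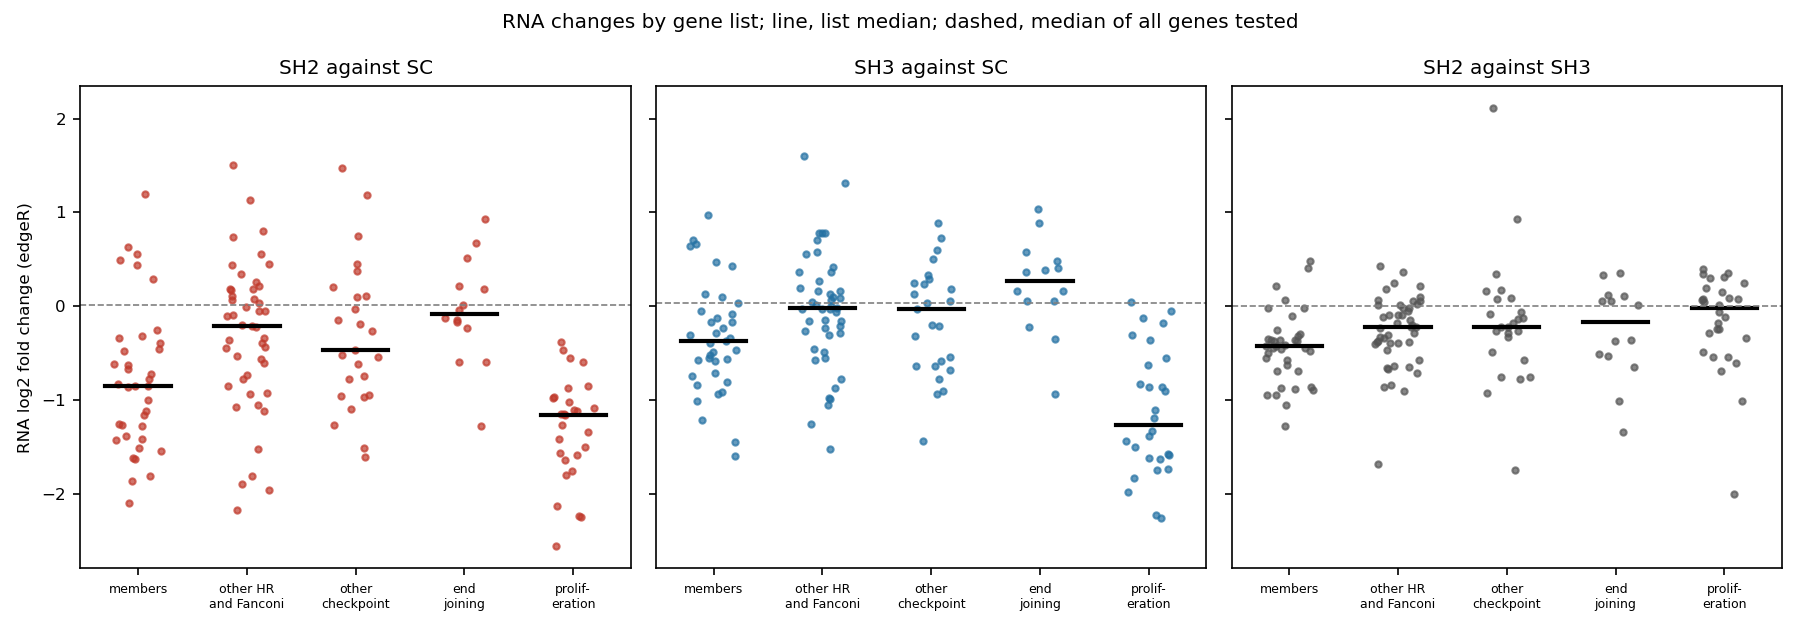
RNA log2 change of single genes (points) in the members and 4 other gene lists for SH2 against SC, SH3 against SC and SH2 against SH3; black bars are list medians and dashed lines the median of all genes tested. Members and proliferation markers lie mostly below the dashed line in both hairpins, and when the hairpins are compared their medians are -0.43 and -0.02.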

How the data were processed

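Cytoplasmic RNA and ribosome footprints of MDA-MB-231 cells were sequenced in 18 libraries, 3 for each of SC, SH2 and SH3 in each kind. The deposited table gives whole-number counts per gene and the authors' DESeq2 results. Per the file headers, the authors also deposited a signal that is the same counts divided by size factors, which was used only to check that relation. Bowtie 1.2.2 and DESeq2 are named in the submitters' processing notes without their roles. The counter, annotation and genome build are not given in the sources used here. Log2 fold changes, p-values and adjusted p-values of that table are the authors' own, and only those on the RPF-to-IN ratio are quoted.

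Deposited counts were tested with edgeR 4.0.16 in R 4.3.3 (filterByExpr, TMM scaling, quasi-likelihood F test, Benjamini-Hochberg adjustment over all genes tested, called at an adjusted p under 0.05). The 9 RNA libraries and the 9 footprint libraries were each fitted together, so the treatments share 1 estimate of the spread, and translational efficiency was the interaction of treatment and kind over all 18. CPM is a count scaled to 1000000 reads of the genes that passed the filter, with the TMM factor applied, within each kind of library. A value within ±2 SE of another is within error.

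RNA libraries held 23469830 to 27629488 counts and footprint libraries 1662705 to 6098648; the biological coefficient of variation was 11.6% for RNA and 15.1% for footprints. No 2 replicate libraries of the same group agreed within sampling noise (lowest chi-square per degree of freedom 3.38). Same-numbered SC and SH2 libraries deviated together in RNA (r across genes 0.37 to 0.41) and in footprints (0.25 to 0.30). Their numbers were therefore taken as pairs, but only in the replicate block, which was run as an alternative. The reported tests used no pairs. This pairing comes from the data. Between SH3 and the other treatments such pairing was partial. In RNA, same-numbered replicates 1 and 3 deviated together (r 0.25 and 0.36 with SC, 0.49 and 0.29 with SH2). Replicate 2 did not (r -0.16 with SC, -0.01 with SH2). In footprints only replicate 3 did so (r 0.26 with SC, 0.32 with SH2). Between RNA and footprints, same-numbered libraries deviated together in SH3 (r 0.21 to 0.43). In SC and SH2 replicate 3 did so (r 0.27 and 0.51), but replicates 1 and 2 did not (r -0.50 to -0.31). RNA replicate 1 went with footprint replicate 2 there (r 0.58 and 0.57), and RNA replicate 2 with footprint replicate 1 (r 0.46 and 0.50). Whether these numbers were exchanged was not tested. Translational efficiency runs that used the numbers, by block or by leaving a replicate out, share this doubt.

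The 37 members were named by the list's own rule, and all were examined. That rule uses no measured value, but the members and the 4 other lists were chosen with earlier results of these data known. Values in every library are given for members called in both hairpins (the 6 with the largest smaller change in each measure), members called between the hairpins (the 4 largest differences in each), a member called in opposite directions, BRCA1, BRCA2, ATM, ATR, CHEK1 and CHEK2; FANCF and RAD50 were added after their values were seen. From each other list up to 2 genes called in both hairpins are named. Alternatives were RLE size factors, DESeq2 1.42.0, no low-count filter, only the compared treatments, a replicate block, thinned footprints and leaving out each library. The fitting script was tested on simulated data. Sequences are from RefSeq (GRCh38.p14).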

Additional observations from a re-analysis of the deposited data

Results flagged for a closer look

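The differences listed here were called between the 2 hairpins by edgeR (adjusted p under 0.05), that is, the change with SH2 differed from the change with SH3. In RNA, log2 of SH2 over SH3 was -1.27 for BLM, -1.05 for RAD51AP1, -0.95 for RMI2, -0.94 for RBBP8, -0.90 for BRCA2, -0.88 for BRIP1, -0.87 for RAD54L and -0.86 for FANCC. It was -0.70 for CHEK1, -0.69 for RAD51C, -0.63 for FANCD2, -0.57 for RAD54B, -0.56 for FANCM and -0.50 for XRCC3. Smaller differences were -0.48 for FANCA, -0.45 for FANCG, -0.45 for MRE11, -0.44 for EXO1, -0.43 for XRCC2, -0.43 for RAD51B, -0.38 for ATM, -0.37 for PALB2, -0.37 for CHEK2, -0.36 for NBN, -0.35 for ATR and -0.32 for FANCI. FANCF was the exception in direction, at 0.49.

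In footprints the difference was -1.54 for RAD54L, -1.30 for RMI2, -1.26 for BLM, -1.25 for RBBP8, -1.17 for RAD51AP1, -1.11 for BRCA2, -0.68 for CHEK1 and -0.48 for FANCD2. Of the 27 RNA differences 17 were called under each of the 11 alternatives run, and of the 8 footprint differences 6 were called under each of the 12 run.

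The 10 RNA differences that were not called under every alternative were those of ATM, ATR, CHEK2, EXO1, FANCG, FANCI, MRE11, NBN, RAD51B and XRCC2. Each was lost without at least 1 library of SH2 or SH3, with edgeR adjusted p up to 0.213 for ATR without SH2 replicate 3, where its difference was -0.22. RAD51B was called under only 2 of the 11 alternatives, and lost with RLE size factors and DESeq2 among others. ATR and FANCI were also lost with RLE, and CHEK2 without the low-count filter. In footprints the FANCD2 difference was lost without any 1 of the 6 hairpin libraries (edgeR adjusted p 0.0645 to 0.137), and that of RMI2 without SH3 replicate 3 (-1.05, adjusted p 0.0744). FANCD2 was also lost with DESeq2 (adjusted p 0.0791), without the low-count filter (edgeR, 0.0863) and with thinned footprints (edgeR, 0.172).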

How the results depend on the processing

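No called member changed direction under any alternative run. The numbers of members called by edgeR stayed within 1.5 times the reported ones for RNA and footprints. Without 1 library at a time, RNA calls ran from 32 to 35 in SH2 against SC, 23 to 27 in SH3 against SC and 18 to 24 in SH2 against SH3, the lowest without SH3 replicate 1 or 3. Footprint calls ran from 20 to 25, 8 to 13 and 6 to 8 in the same order, and translational efficiency stayed at 0. DESeq2 called 1 member in translational efficiency in SH2 against SC, where edgeR called 0; the cause was not tested. With the replicate number as a block, RNA calls were 36, 26 and 27 and footprint calls 24, 16 and 10; apart from RAD51D RNA, the block changed no call between the paired SC and SH2. SH3 was paired with them only in part. With RLE size factors, RNA calls were 35, 29 and 24. Of the reported RNA calls, 31 of 35 in SH2 and 21 of 25 in SH3 were made under each of 11 alternatives, and of the footprint calls 19 of 24 and 6 of 12 under each of 12. Footprints held a median of 49 reads a member against 630 in RNA. Thinned to 1 depth, they gave 22, 10 and 7 calls.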

Other observations

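The authors' deposited table also gives a change of the footprint-to-RNA ratio against SC under separate headings for SH2 and for SH3. The values under both headings are identical in all 17017 rows, for the log2 change, the p-value and the adjusted p-value. Across genes, that log2 change had a correlation of 0.982 with the table's SH3 footprint change minus its SH3 RNA change, and of 0.513 with the same difference for SH2; genes are not independent replicates. For FANCC the authors' deposited table lists a ratio change of 0.15 with an adjusted p of 0.0230 under both headings. These columns were used for nothing else.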
